A study of Homo sapiens with 24 samples.

Results

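HEK293T spheroids from a dual-axis rotating capillary container (DRCC) turned at 1 rpm were compared with HEK293T aggregates from AggreWell microwells, by RNA sequencing of 3 libraries per format. HEK293T is a human embryonic kidney line transformed with adenoviral DNA that also carries the large T antigen of a simian virus, and the labels describe it as epithelial and of kidney origin. A DRCC is a capillary vessel that keeps spheroids moving by rotation, and an AggreWell plate collects still cells into aggregates in small wells. The series holds 24 libraries in 8 groups, the lines HEK293T and PANC-1 (a pancreatic duct carcinoma line) each grown in the DRCC at 1 rpm, in the DRCC at 30 rpm, in AggreWell and in flat culture (2D). The comparison used 6 of the 24 libraries and the 12331 of 26450 genes that had at least 1 FPKM (fragments scaled to transcript length and to the library's total) in at least 3 of the 6 libraries. The labels name no drug and no genetic change for these groups. Culture time, medium, cell density and oxygen are not given in the sources used here, and the labels leave unsaid whether a format's libraries came from separate cultures. The p-values therefore reflect library-to-library spread alone, possibly technical in origin.

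Cells in a spheroid share a limited supply of oxygen, glucose and amino acids, and transcription follows that supply through a few well-known routes. Low oxygen stabilises the HIF transcription factors, which raise glucose uptake and glycolysis. Shortage of amino acids and other stresses raise translation of ATF4, which activates amino acid transporters and synthesis enzymes, and low sterol in the endoplasmic reticulum releases SREBP factors, which raise cholesterol synthesis.

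The 6 libraries held 35520292 to 36147818 fragments in the DRCC at 1 rpm and 37422964 to 38176828 in AggreWell. Across genes, whose values are not independent of each other, Pearson's correlation of log2 values was 0.9968 to 0.9979 within the DRCC format, 0.9976 to 0.9981 within AggreWell and 0.9597 to 0.9648 between the formats, so no library stood apart from its format. Mitochondrially encoded transcripts took 3.33 to 3.52% of fragments in DRCC libraries and 3.42 to 3.56% in AggreWell libraries, while the 10 most counted genes took 6.06 to 6.17% and 5.56 to 5.64%. Line markers fitted the label: 9 HEK293T markers summed to 138 to 142 FPKM in DRCC libraries and 117 to 119 FPKM in AggreWell libraries, against 28.97 to 33.6 FPKM in the PANC-1 libraries of these formats, and 12 PANC-1 markers summed to 37.0 to 38.2, 28.4 to 30.0 and 2382 to 2778 FPKM in the same order. Defining genes of differentiated kidney were nearly absent, since 7 of the 8 in the table stayed under 1 FPKM in all 6 libraries and only LRP2, the endocytic receptor megalin, passed, at 1.89 ± 0.121 FPKM in the DRCC and 2.38 ± 0.0937 FPKM in AggreWell (SD, n = 3 each). Epithelial markers summed to 114 to 129 FPKM in the DRCC and 121 to 124 FPKM in AggreWell, and fibroblast markers to 10.8 to 12.2 and 10.7 to 10.8 FPKM. All 5 endothelial and all 5 blood markers in the table were under 1 FPKM in all 6 libraries.

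Levels below are FPKM in each of the 3 DRCC libraries and then in each of the 3 AggreWell libraries. Changes are log2 fold changes ± SE (n = 3 libraries per format), DRCC minus AggreWell, on the log2(FPKM + 1) scale, which understates the change of low genes, and adjusted p-values are from limma over all 12331 genes. A gene was called at an adjusted p under 0.05. By that rule 5163 genes (41.9%) rose and 4195 (34.0%) fell in the DRCC, and 2973 passed in neither direction. At least 2-fold changes were rarer, with 251 genes higher (2.04%) and 190 lower (1.54%), and the median change of all genes tested was 0.04. These shares are the background for every list count that follows. The share of all genes tested whose libraries did not overlap between the formats was not counted. With 9358 of 12331 genes called, lack of overlap may be common. Where it is given for a named gene below, it only describes that gene. Of the genes tested, 437 of 12331, and 14 of the 770 list members, reached 1 FPKM in libraries of 1 format alone, so a difference was built into their selection. ADM2, BCL2, ETV5, G0S2, H2BC21, INHBA, NOTUM and PHLDA1 are those of them named here, all through the DRCC. In bulk RNA, fewer cells of a kind and less RNA per cell cannot be told apart.

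The plot of all 37 gene lists showed where the formats parted. Glycolysis, HIF target and cholesterol synthesis lists lay at the low end, and snoRNA host genes, glucose-sensing genes, ATF4 targets and aminoacyl-tRNA synthetases at the high end.

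**Figure D1:**
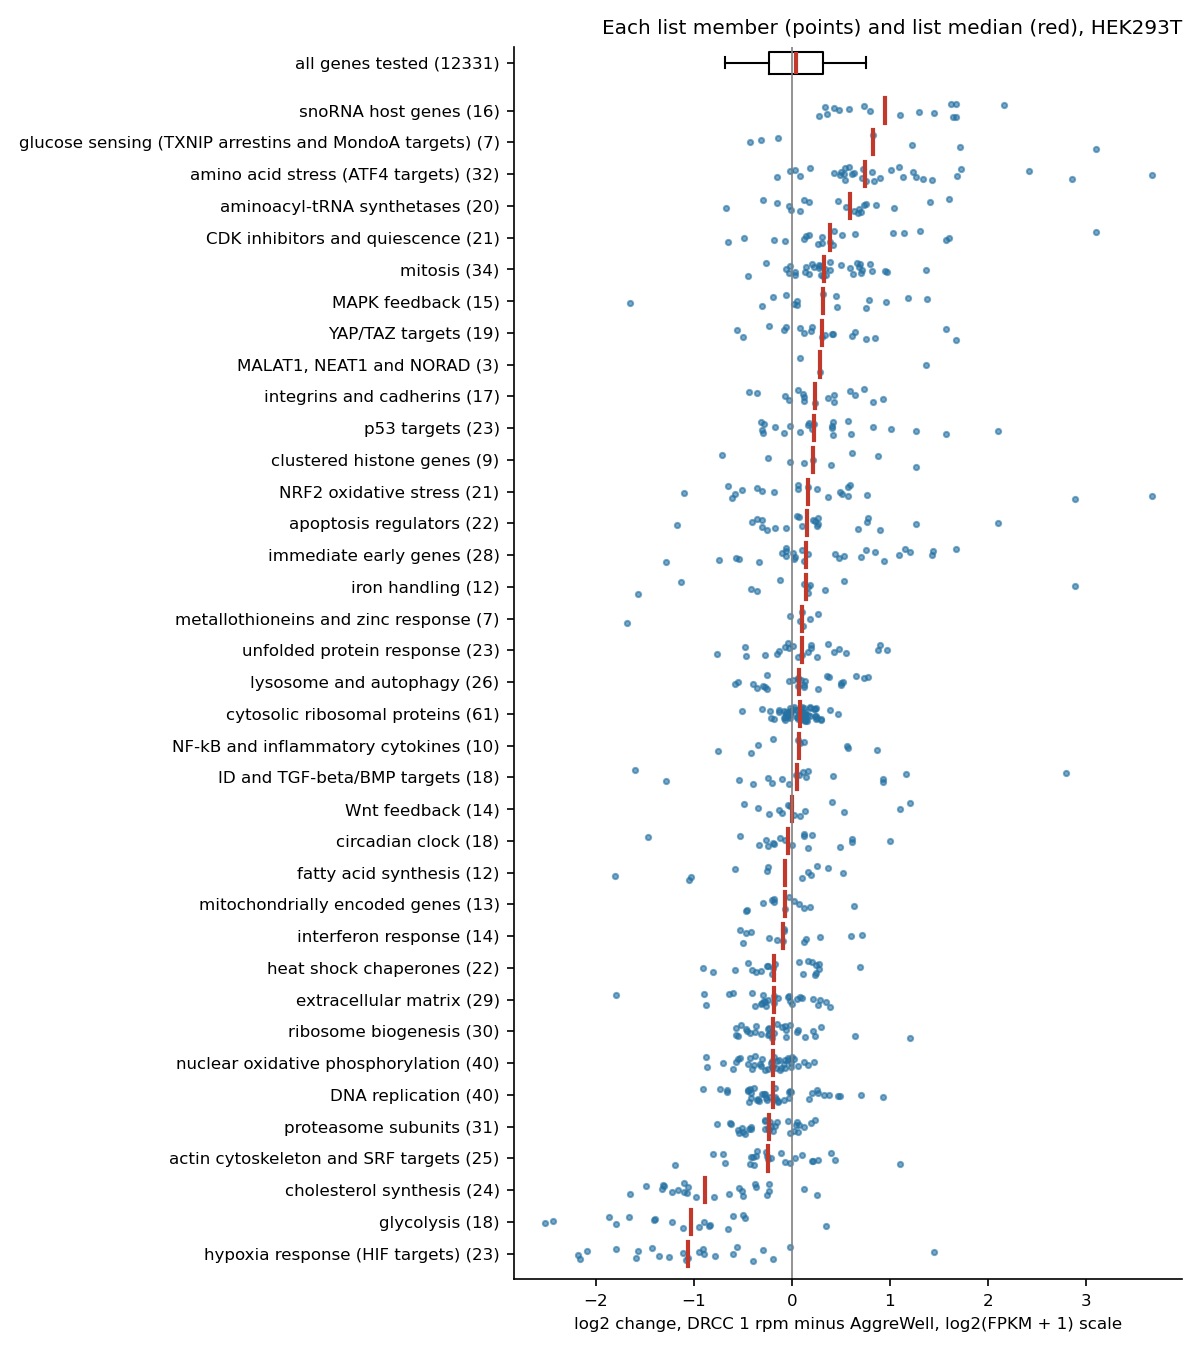
Log2 change (horizontal axis, DRCC 1 rpm minus AggreWell in HEK293T, log2(FPKM + 1) scale) of each tested member of 37 gene lists (blue points) with the list's median (red bar), ordered by median, and the number tested in brackets. The box at the top spans the quartiles of all 12331 genes with whiskers at percentiles 5 and 95, and the medians of the outermost lists, 0.95 and -1.06, lie beyond those whiskers.

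Genes of glycolysis, which splits glucose into pyruvate and lactate, were lower in the DRCC almost without exception. Of 18 members tested, 17 fell and 1 rose, 9 of the falls were at least 2-fold, and the median change was -1.03. PGK1, phosphoglycerate kinase, had 83.0, 82.6 and 85.2 FPKM in the DRCC against 453, 452 and 457 FPKM in AggreWell, a change of -2.43 ± 0.02 (adjusted p = 2.4e-11). LDHA, which makes lactate from pyruvate, had 312, 314 and 315 FPKM against 1141, 1127 and 1145 FPKM (-1.86 ± 0.02, adjusted p = 3.2e-11). ALDOC, an aldolase, had 6.38, 5.98 and 6.53 FPKM against 40.1, 41.1 and 41.2 FPKM (-2.52 ± 0.04, adjusted p = 2.4e-10). For each of these genes the libraries of a format lay close together and far from those of the other format. The aldolase gene ALDOA also fell, at 5.40 ± 0.184 FPKM in the DRCC and 21.1 ± 1.17 FPKM in AggreWell, but it shares 84.5% of its exonic bases with other annotated genes, so its level is uncertain. The falls reached from the glucose transporter to the last steps of the pathway: pyruvate kinase PKM averaged 179 ± 2.39 FPKM in the DRCC and 566 ± 7.18 in AggreWell, enolase ENO1 526 ± 8.21 and 1379 ± 6.52, and GAPDH 1263 ± 27.8 and 2337 ± 33.0. These 3, chosen after their values were seen, changed by -1.66 ± 0.02, -1.39 ± 0.02 and -0.89 ± 0.02. PFKM, the muscle-type phosphofructokinase, was the member that rose (25.9 ± 1.22 FPKM in the DRCC and 20.01 ± 0.403 in AggreWell, 0.35 ± 0.04).

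HIF targets outside glycolysis went the same way, with 20 of 23 members lower, 1 higher and a median change of -1.06. Falls of at least 2-fold were seen for 12 of them. SLC2A1, the main glucose transporter of most cultured cells, had 14.5, 14.3 and 13.9 FPKM in the DRCC against 68.3, 66.9 and 68.3 FPKM in AggreWell (-2.18 ± 0.03, adjusted p = 1.6e-10). BNIP3, a mitophagy receptor, had 38.3, 40.2 and 41.7 FPKM against 184, 179 and 184 FPKM (-2.16 ± 0.03, adjusted p = 2.8e-10). PFKFB4, which sets the level of an activator of phosphofructokinase, had 3.65, 2.98 and 3.13 FPKM against 16.9, 16.6 and 17.6 FPKM (-2.09 ± 0.06, adjusted p = 1.1e-08). The formats did not overlap in any of the 3 genes, which the rule for naming the largest falls required. LOX, a collagen cross-linking oxidase, changed by -1.79 ± 0.06. Among other members, all named after their values were seen, the oxygen-sensing hydroxylase EGLN3 changed by -1.59 ± 0.04 and the growth factor gene VEGFA by -0.40 ± 0.03, the smaller of these falls. CA9, a carbonic anhydrase much used as a HIF marker, did not pass the filter and averaged 0.00607 FPKM in the DRCC and 0.870 FPKM in AggreWell. Near the filter on the other side, ADM2, a secreted peptide of the ATF4 list, averaged 1.08 and 0.429 FPKM and was tested. DDIT4, an inhibitor of the growth kinase complex mTORC1 that answers to oxygen, glucocorticoid and amino acid signals, was the member that rose: 516, 511 and 525 FPKM in the DRCC against 187, 188 and 192 FPKM in AggreWell (1.45 ± 0.02, adjusted p = 2.4e-10, named after its values were seen). It shares 48.5% of its exonic bases with an antisense gene, so its level is uncertain.

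HIF factors bind the core letters ACGTG, and the promoters of PGK1, LDHA and BNIP3 are shown because these genes had some of the largest falls and hold that core in the 250 bases before the RefSeq start site (GRCh38.p14). Capitals mark ACGTG or its reverse complement CACGT, which overlap as CACGTG. PGK1 lies at chrX:78103998-78104247 on the plus strand, LDHA at chr11:18394313-18394562 on the plus strand and BNIP3 at chr10:131981924-131982173 on the minus strand.
PGK1: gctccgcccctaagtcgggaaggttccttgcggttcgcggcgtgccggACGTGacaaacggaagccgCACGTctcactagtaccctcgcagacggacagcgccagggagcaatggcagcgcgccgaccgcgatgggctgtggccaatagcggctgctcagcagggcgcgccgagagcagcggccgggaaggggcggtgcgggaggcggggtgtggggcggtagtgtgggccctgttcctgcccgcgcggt
LDHA: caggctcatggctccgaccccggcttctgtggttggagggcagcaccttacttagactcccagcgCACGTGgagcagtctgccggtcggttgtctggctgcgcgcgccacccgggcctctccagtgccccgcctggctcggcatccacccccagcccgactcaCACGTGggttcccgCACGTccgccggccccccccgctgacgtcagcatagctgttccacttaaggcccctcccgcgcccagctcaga
BNIP3: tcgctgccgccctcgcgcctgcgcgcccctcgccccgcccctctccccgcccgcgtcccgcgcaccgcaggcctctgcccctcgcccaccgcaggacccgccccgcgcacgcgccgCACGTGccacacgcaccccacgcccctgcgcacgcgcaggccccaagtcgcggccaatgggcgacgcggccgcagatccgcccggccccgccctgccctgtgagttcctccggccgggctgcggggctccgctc
Searched on both strands, the letters were present in 10 of 20 HIF target promoters (50%) and 8 of 17 glycolysis promoters (47.1%) that had an entry. They were also present in 18.7% of all 27305 RefSeq promoters and in 23.8% of the promoters of genes tested. A match describes the letters and not a bound site.

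Genes that answer to intracellular glucose phosphates were among the highest in the DRCC. TXNIP, an arrestin that restrains glucose uptake and is switched on by the glucose sensor MondoA, had 212, 207 and 212 FPKM in the DRCC against 23.2, 23.8 and 23.8 FPKM in AggreWell (3.10 ± 0.03, adjusted p = 1.6e-11). ARRDC4, its closest relative, had 72.0, 78.2 and 70.2 FPKM against 21.2, 23.3 and 20.5 FPKM (1.72 ± 0.05, adjusted p = 1.7e-08). ARRDC3 (1.23 ± 0.05) and KLF10 (0.83 ± 0.07) also rose. Each DRCC library lay above each AggreWell library for all 4 genes. The list of 7 held 4 members higher and 3 lower with a median of 0.83, and the 3 that fell were the MondoA gene MLXIP itself (-0.31), its partner MLX (-0.14) and the arrestin gene ARRDC2 (-0.43).

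**Figure D2:**
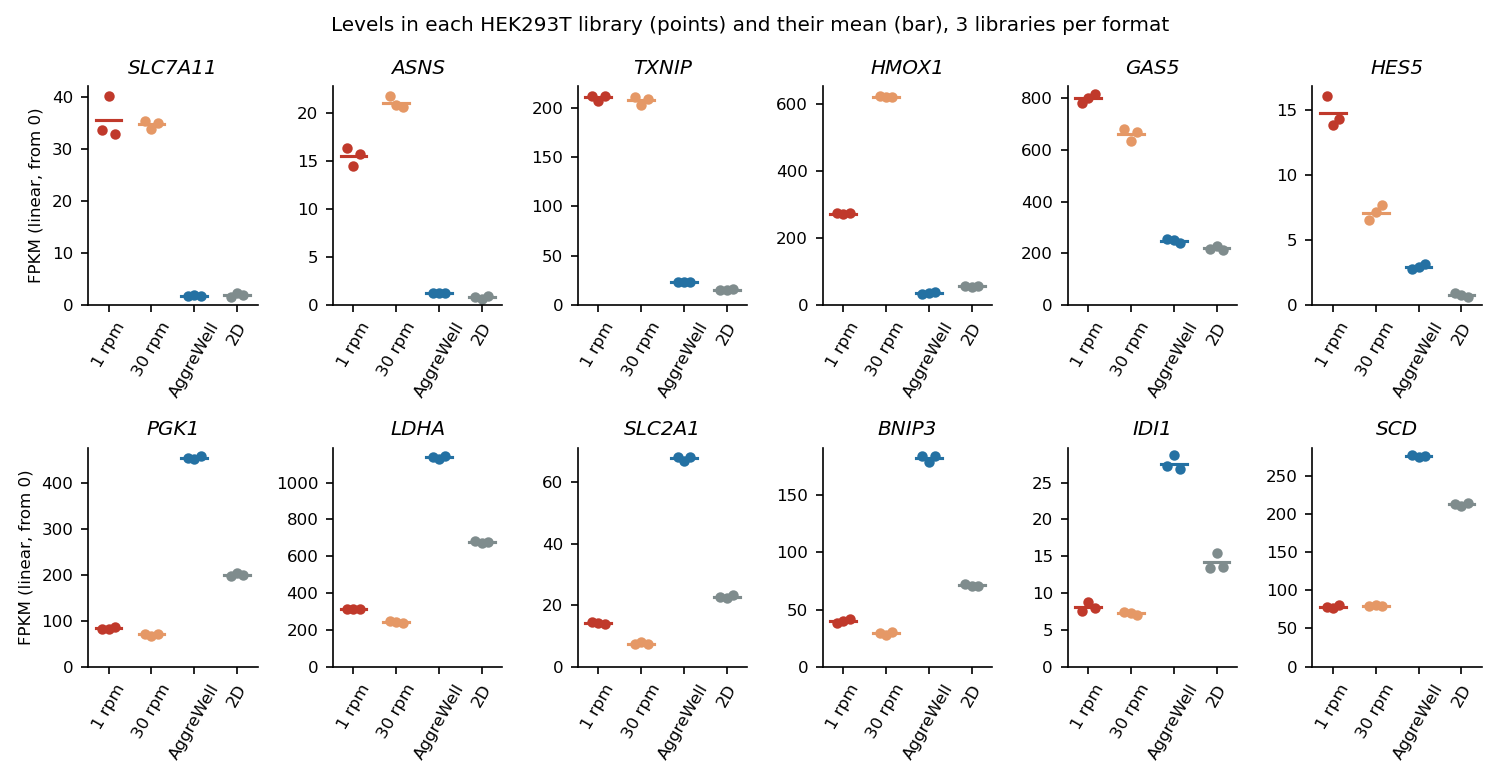
FPKM (vertical axes, linear and starting at 0) of 12 genes in each HEK293T library (points) with the mean of 3 libraries (bar), in the DRCC at 1 rpm, the DRCC at 30 rpm, AggreWell and 2D. The upper row holds genes higher at 1 rpm than in AggreWell (TXNIP near 210.3 against 23.6 FPKM) and the lower row genes that were lower (PGK1 near 83.6 against 454 FPKM), with no overlap of libraries between these formats.

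Targets of ATF4 rose as a group. Of 32 tested, 28 rose, 1 fell and 3 passed in neither direction, 12 rises were at least 2-fold, and the median change was 0.74. SLC7A11, the cystine importer of the cell membrane, had 33.6, 40.2 and 33.0 FPKM in the DRCC against 1.80, 1.97 and 1.80 FPKM in AggreWell, the largest rise of the comparison on the log2(FPKM + 1) scale (3.67 ± 0.07, adjusted p = 8.7e-10). ASNS, asparagine synthetase, had 16.4, 14.5 and 15.8 FPKM against 1.28, 1.26 and 1.29 FPKM (2.86 ± 0.05, adjusted p = 6.3e-10), though 79.7% of its annotated exonic bases are shared with another gene. GDF15, a secreted stress hormone, had 10.8, 9.17 and 9.06 FPKM against 1.08, 1.01 and 0.886 FPKM (2.42 ± 0.07, adjusted p = 1.2e-08). For each of the 3, the lowest DRCC library was well above the highest AggreWell library. CTH, which makes cysteine from cystathionine, rose by 1.73 ± 0.03. CHAC1, a glutathione-degrading enzyme named after its values were seen, rose by 1.69 ± 0.05. The transcripts of ATF4 itself (115 ± 2.60 FPKM in the DRCC and 67.4 ± 0.670 in AggreWell, 0.76 ± 0.03) and of its partner DDIT3 (26.8 ± 0.815 and 14.5 ± 0.421, 0.84 ± 0.04) rose less than that of SLC7A11. SHMT2, mitochondrial serine hydroxymethyltransferase, was the member that fell, by 0.15 on the log2 scale.

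Charging enzymes for transfer RNA, many of them known ATF4 targets, followed: 14 of 20 aminoacyl-tRNA synthetase genes rose and 3 fell, with a median of 0.59. YARS1, the tyrosine enzyme, had 287, 289 and 301 FPKM in the DRCC against 95.2, 96.9 and 94.8 FPKM in AggreWell (1.60 ± 0.03, adjusted p = 3.7e-10). SARS1 for serine changed by 1.41 ± 0.03, GARS1 for glycine by 1.04 ± 0.02 and MARS1 for methionine by 0.86 ± 0.03. The histidine enzyme gene HARS1 fell most (29.3 ± 0.430 FPKM in the DRCC and 47.3 ± 1.83 in AggreWell, -0.67 ± 0.03). The unfolded protein response, which the endoplasmic reticulum raises when proteins misfold, was mixed, with 13 of 23 higher, 6 lower and a median of 0.10 (0.06 without DRCC replicate 2). Its sensors and early targets XBP1 (0.97 ± 0.03), ERN1 (0.90 ± 0.05) and HERPUD1 (0.88 ± 0.03) rose, the oxidoreductase PDIA4 (-0.76 ± 0.03) fell, and the chaperone HSPA5 averaged 324 ± 8.92 FPKM in the DRCC and 271 ± 4.40 FPKM in AggreWell (0.26 ± 0.03).

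The amino acid response element that ATF4 binds with CEBP partners reads TGATGNAA, where N is any base. ASNS and CHAC1, both at least 2-fold higher in the DRCC, carry it in the 250 bases before the RefSeq start and are shown with capitals on the element or its reverse complement. ASNS lies at chr7:97872409-97872658 on the minus strand and CHAC1 at chr15:40953221-40953470 on the plus strand (GRCh38.p14).
ASNS: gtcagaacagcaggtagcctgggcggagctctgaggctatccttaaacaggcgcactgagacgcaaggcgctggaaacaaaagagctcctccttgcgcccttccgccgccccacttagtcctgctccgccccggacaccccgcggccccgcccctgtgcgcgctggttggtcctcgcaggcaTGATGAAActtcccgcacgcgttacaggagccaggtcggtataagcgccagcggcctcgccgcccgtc
CHAC1: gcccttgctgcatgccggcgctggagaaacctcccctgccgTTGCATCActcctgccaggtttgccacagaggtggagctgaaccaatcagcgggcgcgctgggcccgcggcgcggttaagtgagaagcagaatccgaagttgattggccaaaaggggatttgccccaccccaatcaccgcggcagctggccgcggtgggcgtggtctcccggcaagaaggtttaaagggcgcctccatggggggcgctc
Of 26 list members with a promoter entry, 3 held the letters on either strand (11.5%), the third being ATF3. The share was 1.21% among promoters of the genes tested and 3.19% among all RefSeq promoters.

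**Figure D3:**
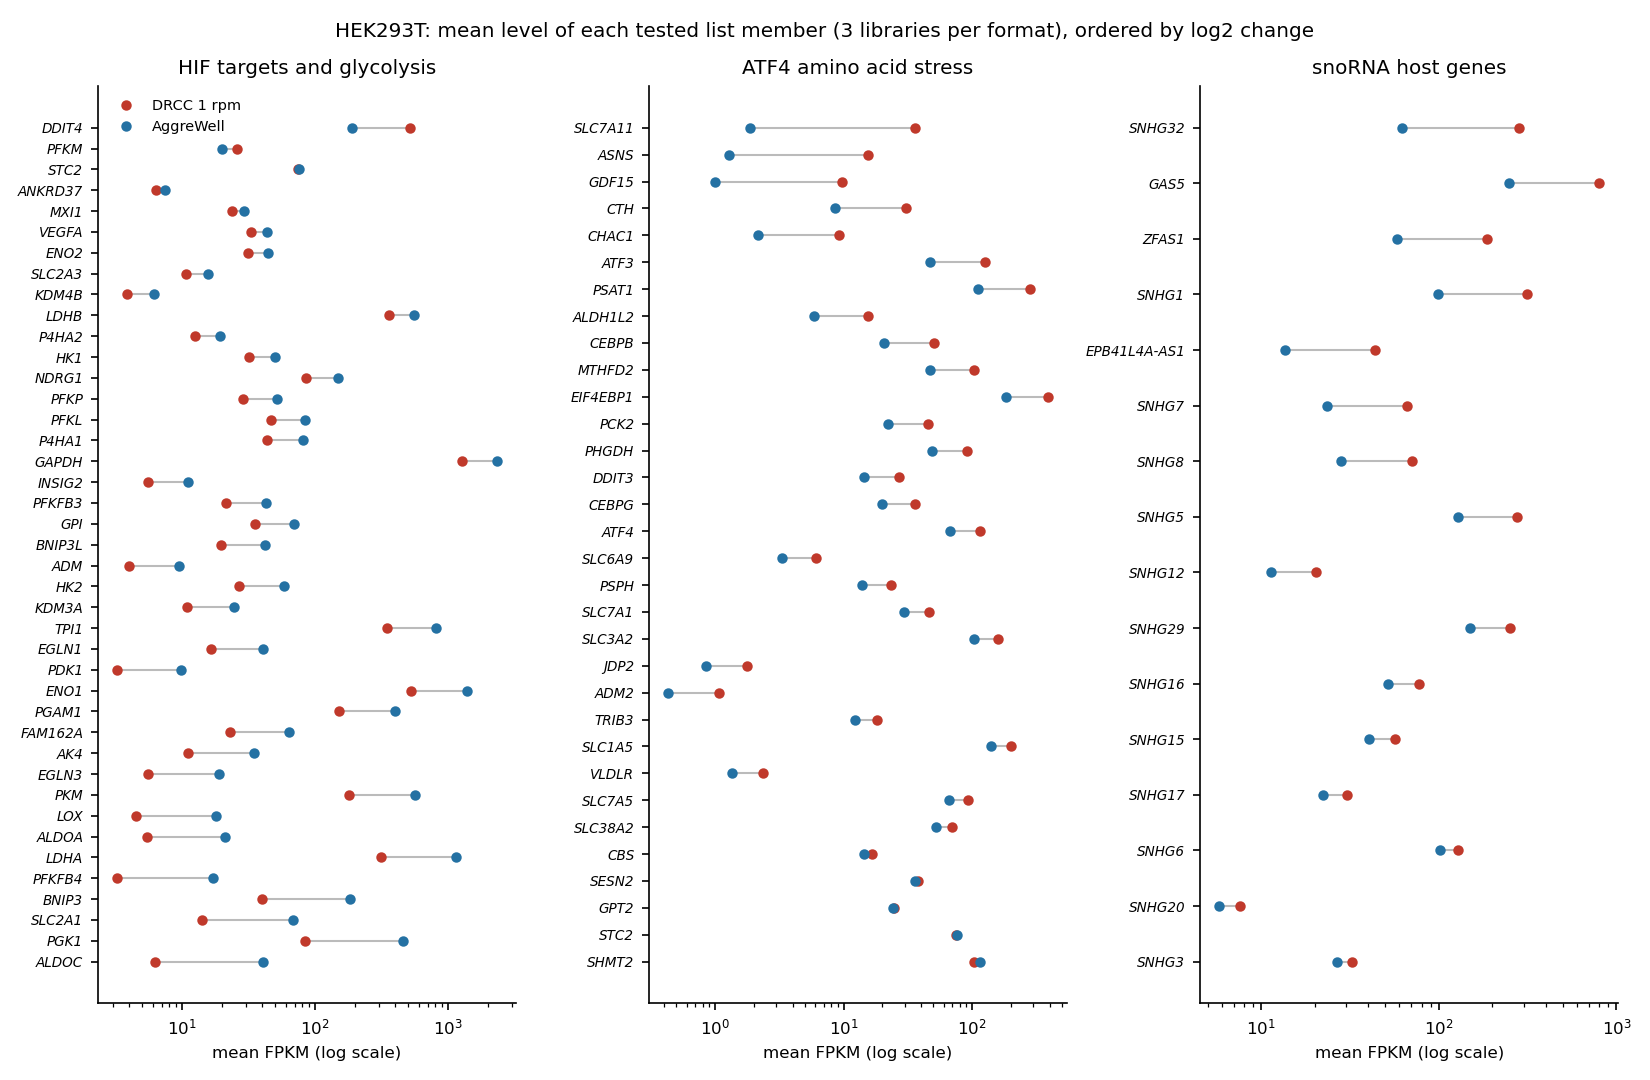
Mean FPKM (horizontal axes, log scale, 3 libraries per format) of every tested member of the HIF target and glycolysis lists (left), the ATF4 list (middle) and the snoRNA host list (right), ordered by log2 change, with DRCC 1 rpm in red and AggreWell in blue. Red lies left of blue down almost the whole left panel, with DDIT4 and PFKM as the called exceptions at its top, and right of blue for 28 called members of the middle panel.

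Oxidative stress genes gave no common direction. Among NRF2 targets, 11 of 21 rose and 8 fell (median 0.17), and SLC7A11, HMOX1 and TXNRD1 led the rises. HMOX1, the oxygenase that breaks down haem, had 274, 271 and 274 FPKM in the DRCC against 34.5, 35.0 and 38.4 FPKM in AggreWell (2.89 ± 0.04, adjusted p = 1.6e-10). TXNRD1, thioredoxin reductase, had 64.3, 62.7 and 60.5 FPKM against 36.0, 35.4 and 37.6 FPKM (0.77 ± 0.03, adjusted p = 1.1e-07). In the other direction, the peroxidase gene PRDX1 had 234, 235 and 242 FPKM against 521, 511 and 492 FPKM (-1.10 ± 0.03, adjusted p = 3.6e-09), with 30.3% of its exonic bases shared with a neighbour. NQO1, a quinone reductase and widely used NRF2 marker, was low and fell (1.93 ± 0.252 FPKM in the DRCC and 3.46 ± 0.131 in AggreWell, -0.61 ± 0.07; named after its values were seen). Iron genes split as well, 7 of 12 higher and 5 lower with a median of 0.15. TFRC, the transferrin receptor that imports iron, had 10.5, 11.2 and 10.8 FPKM in the DRCC against 34.0, 35.6 and 33.1 FPKM in AggreWell (-1.57 ± 0.04, adjusted p = 3.8e-09). The iron reductase STEAP3 (-1.13 ± 0.04) fell too, and the mitochondrial iron importer SLC25A37 (0.53 ± 0.04) rose. Among metallothionein and zinc genes, 2 of 7 rose and 1 fell (median 0.10, and 0.05 without AggreWell replicate 3). MT1X, a zinc-binding metallothionein, changed by -1.68 ± 0.04, with 39% of its exonic bases shared. The zinc importer SLC39A6 changed by 0.27 ± 0.07. The zinc exporter SLC30A1 had 5.49, 6.08 and 5.18 FPKM in the DRCC and 4.60, 5.201 and 4.56 FPKM in AggreWell (0.19 ± 0.06, adjusted p = 0.026), so its libraries overlapped between the formats. The SLC30A1 call was lost without AggreWell replicate 1 (0.16), without AggreWell replicate 3 (0.16) and without DRCC replicate 2 (0.13), and with 3 other settings.

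Cholesterol synthesis was lower in the DRCC along most of its length. Of 24 members tested, 22 fell and 1 rose, 11 falls were at least 2-fold, and the median was -0.88. IDI1, which isomerises the isoprenoid building block, had 7.52, 8.85 and 8.03 FPKM in the DRCC against 27.2, 28.7 and 26.8 FPKM in AggreWell (-1.65 ± 0.05, adjusted p = 2.2e-08). INSIG1, the sterol-sensitive brake on SREBP, had 40.9, 40.9 and 39.5 FPKM in the DRCC against 99.7, 106 and 98.9 FPKM in AggreWell (-1.31 ± 0.03, adjusted p = 4.8e-09). In both genes, the formats did not overlap. NSDHL, a sterol dehydrogenase, changed by -1.32 ± 0.05. PMVK, phosphomevalonate kinase, named after its values were seen, was the member that rose (0.26 ± 0.04), while 2 rose without AggreWell replicate 3. The sterol element letters CACCCCAC, searched on both strands, were in 1 of 18 promoters of the list with an entry (5.56%, SREBF2), in 2.14% of promoters of genes tested and in 2.37% of all.

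Fatty acid synthesis genes were divided. Of 12 members tested, 6 rose and 6 fell with a median of -0.07 (-0.11 without DRCC replicate 1 and -0.04 without DRCC replicate 3), and 3 fell at least 2-fold. SCD, which puts the double bond into newly made fatty acids, had 77.7, 77.3 and 80.6 FPKM in the DRCC against 277, 274 and 276 FPKM in AggreWell (-1.80 ± 0.03, adjusted p = 1.6e-10). ACLY, which makes cytosolic acetyl-CoA from citrate, changed by -1.05 ± 0.02. FASN, the synthase itself, changed by -1.03 ± 0.03, and ACSS2, which makes acetyl-CoA from acetate, by -0.58 ± 0.05. ELOVL5, an elongase of polyunsaturated fatty acids named after its values were seen, had the largest rise (51.2 ± 2.92 FPKM in the DRCC and 35.5 ± 1.56 in AggreWell, 0.52 ± 0.05).

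Cell cycle genes moved apart by phase. In the mitosis list 26 of the 34 members tested rose and 2 fell (median 0.33), while of 40 DNA replication genes 10 rose and 25 fell, with a median of -0.20. CENPE, a kinetochore motor, had 11.4, 13.7 and 10.9 FPKM in the DRCC against 4.09, 4.27 and 3.72 FPKM in AggreWell (1.37 ± 0.08, adjusted p = 4.7e-07). NUF2 (0.95 ± 0.04) and NDC80 (0.82 ± 0.04), subunits of the complex that grips microtubules, and TTK (0.97 ± 0.08), a spindle checkpoint kinase, rose as well. The 2 mitosis genes that fell were CCNB1 (cyclin B, -0.45 ± 0.03) and FOXM1, a transcription factor of the G2 phase (-0.26 ± 0.04). Among replication genes, UHRF1, which guides DNA methylation to new strands, changed by -0.73 ± 0.03. CDT1, which loads the replicative helicase, went the other way with 133, 131 and 135 FPKM in the DRCC against 69.0, 67.4 and 71.8 FPKM in AggreWell (0.93 ± 0.03, adjusted p = 2.0e-08). RFC4, a subunit of the clamp loader, changed by 0.71 ± 0.04. Clustered histone genes were mostly below the filter, 9 of 49 being tested, with 4 higher, 1 lower and a median of 0.22, and their close copies make these levels uncertain. The median was 0.44 without AggreWell replicate 1, where 7 were tested. It was 0.42 without DRCC replicate 2 (5 tested) or without DRCC replicate 3 (6 tested). H2BC11 (0.88 ± 0.09) and H2BC21 (0.61 ± 0.07) rose and H2BC12 (-0.71 ± 0.04) fell, and 2 histone genes fell without AggreWell replicate 2.

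Members of a list of cyclin kinase inhibitors and quiescence genes were mostly higher beside the mitosis genes. Of 21 members tested, 17 rose and 3 fell with a median of 0.39, and 6 rises were at least 2-fold. CDKN2D, an inhibitor of the cyclin D kinases, had 15.5, 17.1 and 15.4 FPKM in the DRCC against 4.11, 5.61 and 4.48 FPKM in AggreWell (1.57 ± 0.09, adjusted p = 3.9e-07). CCND2, a D-type cyclin and so no inhibitor, had 26.5, 26.2 and 28.1 FPKM against 7.99, 8.25 and 8.41 FPKM (1.60 ± 0.04, adjusted p = 3.6e-09). TXNIP and HES1 (1.31 ± 0.05), a repressor downstream of Notch, completed the list's largest changes. The inhibitor gene CDKN2A fell most (51.7 ± 1.59 FPKM in the DRCC and 81.7 ± 1.77 in AggreWell, -0.65 ± 0.03). Among p53 targets, 14 of 23 rose and 5 fell (median 0.23), in a line whose large T antigen binds p53. PMAIP1, the death gene NOXA, had 114, 134 and 111 FPKM against 26.4, 28.5 and 26.2 FPKM (2.10 ± 0.07, adjusted p = 1.8e-08). GADD45A, a DNA damage and stress gene, had 188, 191 and 185 FPKM against 61.8, 64.0 and 62.0 FPKM (1.57 ± 0.03, adjusted p = 4.3e-10). BBC3, the death gene PUMA, changed by 1.27 ± 0.06 and ZMAT3, an RNA-binding p53 target, by 1.01 ± 0.06. PMAIP1 and GADD45A also answer to ATF4 and related stress factors. The p53 target used most often, CDKN1A, averaged 23.0 ± 0.520 FPKM in the DRCC and 16.9 ± 0.161 in AggreWell (0.42 ± 0.03). Apoptosis regulators as a whole were mixed, with 11 of 22 higher, 7 lower and a median of 0.16 (0.10 without DRCC replicate 1): BCL2, which blocks cell death, rose (0.90 ± 0.06) and BID, which promotes it, fell (-1.17 ± 0.06).

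All 16 genes that host small nucleolar RNAs in their introns rose, 8 of them at least 2-fold, with a median of 0.95. Several of their spliced transcripts, GAS5 among them, are known to be degraded when ribosomes read them. GAS5 had 783, 801 and 817 FPKM in the DRCC against 255, 251 and 240.4 FPKM in AggreWell (1.68 ± 0.03, adjusted p = 4.1e-10). SNHG32 had 283, 284 and 278 FPKM against 66.8, 60.9 and 59.5 FPKM (2.16 ± 0.04, adjusted p = 7.2e-10). SNHG1 had 316, 309 and 312 FPKM against 101, 99.9 and 98.0 FPKM (1.64 ± 0.02, adjusted p = 1.6e-10). In each, every DRCC library exceeded every AggreWell library. ZFAS1 changed by 1.67 ± 0.04 with 32.3% of its exonic bases shared, and the smallest rise was that of SNHG3 (0.28 ± 0.03). Of 3 long noncoding RNAs, MALAT1, which stays in the nucleus, had 64.5, 71.0 and 63.9 FPKM against 24.97, 26.0 and 24.5 FPKM (1.37 ± 0.04, adjusted p = 2.0e-08), NEAT1 changed by 0.29 ± 0.03, and NORAD by 0.08 ± 0.05, which did not pass (adjusted p = 0.16), giving 2 higher, 0 lower and a median of 0.29. A few protein-coding genes of RNA processing, named after their values were seen, moved by similar sizes in both directions. The splicing factor genes SRSF3 (35.8, 36.8 and 35.9 FPKM in the DRCC against 104, 104 and 102 FPKM in AggreWell, -1.49 ± 0.03) and SRSF7 (25.6, 27.1 and 27.7 FPKM against 92.9, 90.2 and 91.1 FPKM, -1.73 ± 0.03) fell. TAF1D, an RNA polymerase I cofactor whose introns also carry small nucleolar RNAs, had 90.7, 94.9 and 86.8 FPKM against 30.8, 35.5 and 29.4 FPKM (1.48 ± 0.06). CCNB1IP1, a ubiquitin ligase gene, had 216, 213 and 212 FPKM against 64.4, 63.0 and 60.4 FPKM (1.75 ± 0.03).

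Signalling lists were smaller in their shifts, apart from some members. HES5, a direct Notch target of neural progenitors, had 16.1, 13.9 and 14.3 FPKM in the DRCC against 2.82, 2.91 and 3.17 FPKM in AggreWell (1.99 ± 0.06, adjusted p = 1.3e-08). NRARP, a Notch feedback inhibitor, had 241, 229 and 237 FPKM against 63.4, 62.6 and 66.4 FPKM (1.86 ± 0.03, adjusted p = 4.3e-10). Both belong to the 15 largest rises, and no list of Notch targets was tested. In the TGF-beta and BMP list 6 of 18 members rose and 7 fell, with a median of 0.05 (-0.06 where a mean of 5 FPKM was required, 0.00 without DRCC replicate 3). Its ligands INHBE (25.5, 24.7 and 23.9 FPKM against 2.87, 2.43 and 2.79 FPKM, 2.80 ± 0.05) and INHBA (1.17 ± 0.06) rose. INHBE is also known as an ATF4 target. The BMP antagonist NOG (-1.60 ± 0.09) and the inhibitory SMAD6 (-1.28 ± 0.05) fell. Of 15 MAPK feedback genes, 8 rose and 3 fell with a median of 0.32. That median was 0.12 without DRCC replicate 1, 0.08 without DRCC replicate 2 and 0.07 without DRCC replicate 3, where 13 members were tested, and 0.05 where a mean of 5 FPKM was required. ETV5 and PHLDA1 reached 1 FPKM in the DRCC alone, so leaving out any DRCC library removed both from the test. The median of 0.32 thus leans on members selected through the DRCC. The ERK-driven factors ETV4 (5.72, 5.54 and 5.48 FPKM against 1.83, 1.18 and 1.64 FPKM, 1.38 ± 0.09) and ETV5 (1.19 ± 0.06) and the inhibitor SPRY2 (0.96 ± 0.04) rose, while SPRY1 (5.18, 4.33 and 4.33 FPKM against 16.1, 15.8 and 17.7 FPKM, -1.65 ± 0.07) fell. Of 14 Wnt feedback genes, 4 rose and 4 fell with a median of 0.00, and 2 fell without AggreWell replicate 1 or without AggreWell replicate 3. MYC, which drives growth and ribosome production, had 104, 98.3 and 103 FPKM in the DRCC against 43.6, 43.3 and 43.4 FPKM in AggreWell (1.21 ± 0.03, adjusted p = 3.6e-09). The Wnt inhibitors NOTUM (1.10 ± 0.08) and NKD2 (0.53 ± 0.04) rose and cyclin gene CCND1 (-0.49 ± 0.04) fell.

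Immediate early genes, the quick transcriptional answer to growth factors, stress and mechanical load, were 16 of 28 higher and 6 lower. Their median of 0.15 was 0.24 without AggreWell replicate 1 and 0.35 where a mean of 5 FPKM was required. CCN1, a secreted matrix protein, had 29.6, 28.5 and 30.2 FPKM in the DRCC against 8.89, 7.52 and 9.20 FPKM in AggreWell (1.68 ± 0.06, adjusted p = 5.0e-08). PPP1R15A, which reverses the translation block of the stress response, changed by 1.44 ± 0.04 and ATF3, a stress factor, by 1.43 ± 0.03. FOS, the best-known gene of the class, had 2.55, 3.13 and 2.39 FPKM against 8.16, 8.14 and 7.57 FPKM (-1.28 ± 0.07, adjusted p = 4.4e-07), the largest fall of the list. Clock genes were 7 of 18 higher and 8 lower, with a median of -0.04, which was 0.01 without AggreWell replicate 3. The repressors NR1D2 (1.00 ± 0.06), NR1D1 (0.61 ± 0.08) and NFIL3 (0.61 ± 0.04) rose and BHLHE41 (-1.47 ± 0.05) fell. NF-kB genes were 3 of 10 higher and 4 lower with a median of 0.07 (-0.04 with quantile normalization, 0.04 without DRCC replicate 1): the subunit genes NFKB2 (0.87 ± 0.04), RELB (0.57 ± 0.08) and REL (0.56 ± 0.05, 50.7% of exonic bases shared) rose and NFKB1 (-0.75 ± 0.04) fell. Of 14 interferon genes 4 rose and 5 fell with a median of -0.09, against 3 and 9 with median-ratio scaling. The antiviral membrane proteins IFITM3 (0.72 ± 0.06, 23.7% of exonic bases shared) and IFITM2 (0.60 ± 0.05) rose. HLA-C (-0.53 ± 0.03), which presents antigen, and ISG15 (-0.50 ± 0.08), a ubiquitin-like protein, fell.

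Adhesion and cytoskeleton genes separated as well. Of 25 actin and SRF target genes, 16 fell and 7 rose, with a median of -0.24. ACTB, cytoplasmic beta-actin and a common loading control, had 605, 579.7 and 614 FPKM in the DRCC against 1356, 1346 and 1391 FPKM in AggreWell (-1.19 ± 0.03, adjusted p = 1.9e-09). The actin-binding genes CFL1 (-0.80 ± 0.03) and PFN1 (-0.70 ± 0.02) fell, and the smooth muscle actin ACTA2 was low and rose (6.72 ± 0.208 FPKM in the DRCC and 2.59 ± 0.0837 in AggreWell, 1.10 ± 0.05, 38.3% of exonic bases shared). YAP and TAZ targets were 13 of 19 higher and 3 lower, with a median of 0.31. Beside CCN1 and GADD45A, which other lists hold too, these were ANKRD1 (5.27, 5.06 and 5.35 FPKM against 2.62, 2.47 and 2.30 FPKM, 0.85 ± 0.05) and CCN2 (0.76 ± 0.10). Integrin and cadherin genes were 12 of 17 higher and 2 lower, with a median of 0.24 (0.08 where a mean of 5 FPKM was required). The laminin receptor subunit ITGA6 (6.24, 5.92 and 5.77 FPKM against 2.47, 2.87 and 2.62 FPKM, 0.93 ± 0.05), the collagen receptor subunit ITGA2 (0.83 ± 0.06), the tight junction gene OCLN (0.74 ± 0.05) and the cadherin CDH2 (0.65 ± 0.04) led. Extracellular matrix genes were 6 of 29 higher and 16 lower, with a median of -0.18. After LOX, the largest falls were those of the collagen prolyl hydroxylase P4HA1 (-0.89 ± 0.03), the basement membrane collagen COL4A2 (-0.87 ± 0.03) and the oxidase LOXL2 (-0.64 ± 0.05). P4HA1 and LOX are HIF targets and were counted in that list too.

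Housekeeping machinery shifted by small amounts. Of 40 nuclear genes of oxidative phosphorylation 26 fell and 3 rose (25 and 6 with quantile normalization), with a median of -0.19, led by ATP5MC1 of the ATP synthase (62.5, 59.7 and 61.0 FPKM in the DRCC against 114, 113 and 111 FPKM in AggreWell, -0.87 ± 0.03) and NDUFB10 of complex I (-0.86 ± 0.03). The Rieske iron-sulphur subunit UQCRFS1 (-0.70 ± 0.06) and NDUFA8 (-0.60 ± 0.03) followed. Of 13 mitochondrially encoded genes 3 rose and 6 fell with a median of -0.07 (-0.02 without DRCC replicate 1). ND5 had 2758, 2569 and 2675 FPKM against 1679.6, 1693 and 1789.6 FPKM (0.63 ± 0.03), while ND1 (-0.47 ± 0.04), ND2 (-0.46 ± 0.04) and CYTB (-0.29 ± 0.03) fell, and nuclear copies of these genes make their levels uncertain. Proteasome subunits were 21 of 31 lower and 3 higher (7 higher with quantile normalization), with a median of -0.23, and PSMD1 (-0.76 ± 0.04), PSMD3 (-0.63 ± 0.02), PSMD2 (-0.62 ± 0.03) and PSMB2 (-0.55 ± 0.03) fell most. Heat shock chaperones were 10 of 22 higher and 12 lower, with a median of -0.18. HSP90AA1, the inducible chaperone of kinases and receptors, had 361, 357 and 365 FPKM in the DRCC against 635, 630.5 and 625 FPKM in AggreWell (-0.80 ± 0.02). DNAJA1 (-0.91 ± 0.03) and the mitochondrial chaperonin HSPD1 (-0.58 ± 0.02) fell and DNAJB4 (0.70 ± 0.09) rose. Of 61 cytosolic ribosomal protein genes 33 rose and 12 fell with a median of 0.08, against 23 and 19 with median-ratio scaling. The widest of these changes were those of RPS10 (-0.51 ± 0.10, 55.6% of exonic bases shared), RPL37 (0.47 ± 0.04), RPS12 (0.39 ± 0.03) and RPS15 (-0.30 ± 0.02), and processed copies make such genes uncertain. Ribosome biogenesis genes were 18 of 30 lower and 6 higher, with a median of -0.19, although MYC, counted in this list, rose. The snoRNP protein NOP58 (0.65 ± 0.03) rose, and NOLC1 (-0.57 ± 0.02), a nucleolar chaperone, and POLR1C (-0.57 ± 0.03), an RNA polymerase subunit, fell. Lysosome and autophagy genes were 13 of 26 higher and 8 lower with a median of 0.08, where GABARAPL1 (50.6, 51.2 and 50.7 FPKM against 30.2, 29.2 and 30.8 FPKM, 0.74 ± 0.03), WIPI1 (0.78 ± 0.08, 28.5% of exonic bases shared) and the lysosomal regulator TFE3 (0.66 ± 0.04) rose and the sialidase NEU1 (-0.58 ± 0.04) fell.

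The remaining genes with the largest changes among well-expressed protein-coding genes belong to no list. G0S2, an inhibitor of fat breakdown, had 17.6, 17.03 and 17.7 FPKM in the DRCC against 0.629, 0.598 and 0.366 FPKM in AggreWell (3.59 ± 0.07, adjusted p = 7.9e-10). NGFR, a neurotrophin receptor, had 39.1, 38.6 and 40.2 FPKM against 2.39, 2.62 and 2.80 FPKM (3.48 ± 0.05, adjusted p = 1.6e-10). CALCB, a calcitonin gene-related peptide, had 126, 119.8 and 121 FPKM against 15.3, 14.6 and 14.7 FPKM (2.96 ± 0.03, adjusted p = 4.7e-11). All 3 were scarce or modest in AggreWell and clearly separated from it in the DRCC, as the naming rule required. G0S2 reached 1 FPKM in the DRCC alone, so a difference was built into its selection. SAT1, which acetylates polyamines for export, rose by 2.31 ± 0.03, and the membrane-bound growth cone protein BASP1 by 1.93 ± 0.05. C11orf96 rose by 2.09 ± 0.05 with 72% of its exonic bases shared. On the other side, GBE1, the glycogen branching enzyme, had the largest fall of the comparison on the log2(FPKM + 1) scale, with 3.43, 3.33 and 3.12 FPKM in the DRCC against 29.9, 29.3 and 29.1 FPKM in AggreWell (-2.83 ± 0.04, adjusted p = 1.6e-10). NRN1, a neurite-promoting surface protein, had 16.2, 17.1 and 17.4 FPKM against 69.0, 70.5 and 70.5 FPKM (-1.99 ± 0.03, adjusted p = 4.3e-10). PLOD2, a collagen lysyl hydroxylase, had 24.8, 26.0 and 24.5 FPKM against 101, 104 and 97.0 FPKM (-1.96 ± 0.04, adjusted p = 6.3e-10). GBE1 and PLOD2 are known HIF targets outside the list used here. TCEAL7 (-2.62 ± 0.06), the adaptor DOK3 (-2.24 ± 0.08), EOLA1 (-2.21 ± 0.04), TMEM45A (-2.01 ± 0.06), PRR22 (-2.00 ± 0.06) and the liprin PPFIA4 (-1.98 ± 0.06) made up the rest of the falls.

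HEK293T libraries from the DRCC at 30 rpm and from 2D put these levels in context, without a test, since any change against AggreWell would share the same AggreWell libraries. Correlations across genes were 0.9892 to 0.9895 between DRCC libraries at 1 rpm and at 30 rpm, 0.9524 to 0.955 between 30 rpm and AggreWell, and 0.9302 to 0.9419 between 1 rpm and 2D. Between 30 rpm and 2D they were 0.9247 to 0.9317. AggreWell and 2D correlated at 0.9693 to 0.9732, above the 0.9597 to 0.9648 between AggreWell and the DRCC at 1 rpm. SLC7A11 averaged 35.6 ± 3.99 FPKM at 1 rpm, 34.7 ± 0.858 at 30 rpm, 1.86 ± 0.0958 in AggreWell and 1.93 ± 0.370 in 2D (SD, n = 3 each), and TXNIP 210.3 ± 2.61, 208 ± 4.24, 23.6 ± 0.301 and 15.7 ± 0.458 in the same order. For both genes the rotated formats lay together and far above the still ones. HMOX1 differed within the DRCC, at 273 ± 2.18 FPKM at 1 rpm and 621 ± 1.97 at 30 rpm, with 36.0 ± 2.12 in AggreWell and 55.9 ± 2.04 in 2D. INHBE was higher at 1 rpm (24.7 ± 0.819 FPKM) than at 30 rpm (10.04 ± 0.820), as was HES5 (14.8 ± 1.15 and 7.13 ± 0.587), and neither pair of formats overlapped. For the glycolysis genes PGK1 and LDHA, 2D lay between the spheroid formats: PGK1 averaged 83.6 ± 1.40 FPKM at 1 rpm, 70.4 ± 2.64 at 30 rpm, 454 ± 2.42 in AggreWell and 200.2 ± 2.39 in 2D, and LDHA 314 ± 1.38, 242 ± 5.59, 1138 ± 9.27 and 676 ± 4.06. TFRC was 10.9 ± 0.345 FPKM at 1 rpm, 19.7 ± 0.305 at 30 rpm, 34.3 ± 1.25 in AggreWell and 16.3 ± 0.605 in 2D.

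PANC-1 in the same formats gave a comparison with no shared library. There, 4970 of 11304 genes rose (44.0%) and 4483 fell (39.7%) in the DRCC at 1 rpm against AggreWell, with a median change of 0.03. Of 10515 genes tested in both lines, 4767 were called in the same direction (45.3%) and 2019 in opposite directions (19.2%). An interaction fitted over the 12 libraries of both lines called a difference of the change for 9647 of 13136 genes (73.4%).

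Sterol and mitosis genes were the lists in which the lines went opposite ways most often. For cholesterol synthesis, 18 of 24 members were called in opposite directions, and the median was -0.88 in HEK293T and 0.81 in PANC-1. IDI1, for example, averaged 19.6 ± 0.110 FPKM in the DRCC and 5.70 ± 0.0289 in AggreWell in PANC-1 (1.62 ± 0.03), and the changes differed by -3.27 ± 0.06 (HEK293T minus PANC-1, adjusted p = 6.7e-13). SCD averaged 571 ± 4.55 and 196 ± 1.32 FPKM in PANC-1 (1.54 ± 0.02), with a difference of -3.34 ± 0.03 (adjusted p = 2.8e-16). For mitosis, 26 of 34 members were called in opposite directions, since all 34 fell in PANC-1 with a median of -0.72. NDC80 averaged 39.1 ± 1.10 and 83.0 ± 1.71 FPKM in PANC-1 (-1.07 ± 0.03), and the changes differed by 1.89 ± 0.05 (adjusted p = 9.6e-12). Of 40 DNA replication genes, 25 fell in HEK293T with a median of -0.20 and all 40 in PANC-1 with a median of -1.32, and 10 were called in opposite directions.

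**Figure D4:**
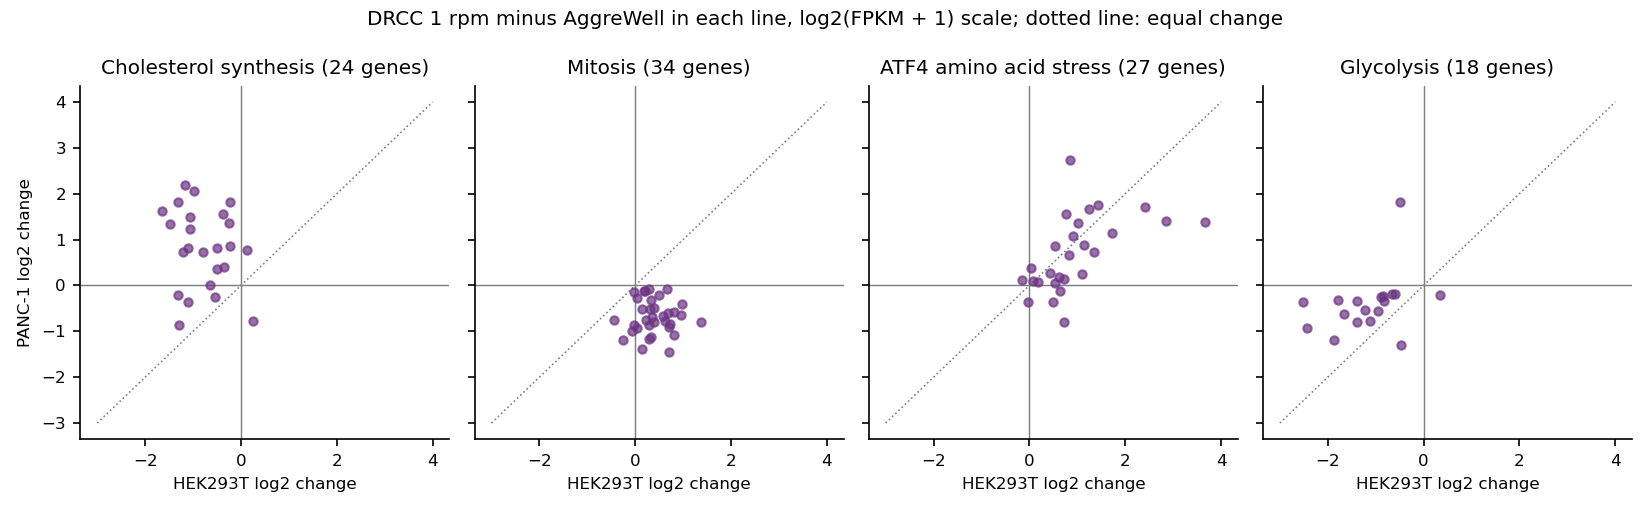
Log2 change of list members in HEK293T (horizontal axes) and PANC-1 (vertical axes), DRCC 1 rpm minus AggreWell on the log2(FPKM + 1) scale, for 4 lists; each point is a gene and the dotted line marks equal change. Cholesterol genes lie mostly upper left and mitosis genes mostly lower right (18 of 24 and 26 of 34 called in opposite directions), while ATF4 targets lie mostly upper right and glycolysis genes mostly lower left.

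Several other lists pointed the same way in both lines. Of 18 glycolysis genes tested in both, 16 were called in the same direction, with a PANC-1 median of -0.35, and PGK1 fell in PANC-1 too (103 ± 2.22 FPKM in the DRCC and 196 ± 0.703 in AggreWell, -0.92 ± 0.02), by less than in HEK293T (difference -1.51 ± 0.03, adjusted p = 5.1e-13). Of 27 ATF4 targets tested in both, 19 were called in the same direction, with a PANC-1 median of 0.70. SLC7A11 averaged 5.46 ± 0.343 and 1.47 ± 0.0869 FPKM in PANC-1 (1.39 ± 0.05), and its rise was larger in HEK293T (difference 2.29 ± 0.10, adjusted p = 4.8e-10). All 16 snoRNA host genes rose in PANC-1 as well, with a median of 1.01. HIF targets there were 13 of 21 lower and 5 higher with a median of -0.30, and SLC2A1 changed by 0.02. Mitochondrially encoded genes differed between the lines in the size of their change. Of 13 in PANC-1, 1 rose and 11 fell with a median of -1.74. In HEK293T 3 rose and 6 fell, with a median of -0.07.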

How the data were processed

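RNA from 24 libraries of HEK293T and PANC-1 was sequenced, and 6 HEK293T libraries (DRCC at 1 rpm and AggreWell, 3 each) entered the main comparison, with groups and replicate numbers taken from the labels. TRIzol served for extraction and a VAHTS Universal V10 kit for library construction, per the labels' protocols. Poly(A) selection and strand marking are not given in the sources used here. Overlapping genes, antisense ones among them, therefore cannot be told apart. The authors deposited FPKM values for 26450 genes. The submitters' processing notes list the tools HISAT2, fastp, R 3.2.0 and HTSeq without their roles. They also name mm10, a mouse build, although the symbols are human (25154 are in RefSeq), so no coordinates come from the table. FPKM relates each gene to its library's total, so changes in abundant genes shift all others. Every gene's FPKM values were whole multiples of 1 fragment (tolerance 0.01), which gave the depth: 32555387 to 39556154 fragments per library over the series.

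Two-sided tests on log2(FPKM + 1) used limma 3.58.1 (R 4.3.3), its variance prior following intensity, with Benjamini-Hochberg adjustment over all genes tested. Genes needed at least 1 FPKM in at least 3 of the libraries fitted. The change in PANC-1 and the interaction of format and line were fitted likewise. The procedure was tested on simulated data. Tables and figures used Python 3.11.15 with pandas 2.3.3, numpy 2.4.6 and matplotlib 3.10.9. The genes, lists and tests were chosen with earlier results of these data known. Named were the 15 largest rises and 15 largest falls among called protein-coding genes with a mean of at least 5 FPKM in the higher format and no overlap of libraries, the 4 called members of each of 37 lists with the largest change, and the 6 genes with the largest line difference among those called in opposite directions. A few genes named by this rule were left out of the text, and others are said to be named after their values were seen. Lists share members, so their counts are not independent. As alternatives, scaling was by median ratio or quantiles, and mitochondrially encoded genes were left out. The filter was dropped or raised to a mean of 5 FPKM, and the pseudocount lowered to 0.1. Other fits held all formats, robust shrinkage, replicate number as a block or limma-voom on recovered fragments, and each library was left out in turn. Exon overlaps come from GENCODE 29, and promoters, which were 250 bases upstream of the start, from RefSeq on GRCh38.p14. Smaller overlaps are not stated beside each gene, such as 17.7% of exonic bases for NGFR and 15.3% for CCND2.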

Additional observations from a re-analysis of the deposited data

Results flagged for a closer look

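For 6 genes the change between the DRCC at 1 rpm and AggreWell differed between HEK293T and PANC-1 by a test of the difference itself, the interaction in limma over the 12 libraries, with calls in opposite directions in the lines. These are the largest such differences among well-expressed genes, and a difference of some size was called for 73.4% of all genes tested. Differences are HEK293T minus PANC-1 on the log2(FPKM + 1) scale.

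The largest was that of DBP, a clock-controlled transcription factor, at -3.44 ± 0.08 (SE; adjusted p = 2.1e-12). DBP averaged 5.63 ± 0.2498 FPKM in the DRCC and 6.93 ± 0.377 in AggreWell in HEK293T, and 32.4 ± 1.61 and 2.68 ± 0.233 FPKM in PANC-1 (SD, n = 3 each). It shares 23% of its exonic bases with SPHK2. The other 5 genes belong to lipid synthesis. MSMO1, a sterol methyl oxidase, differed by -3.36 ± 0.05 (adjusted p = 1.1e-13), with 14.6 ± 0.446 and 33.8 ± 0.318 FPKM in HEK293T and 53.3 ± 0.637 and 10.8 ± 0.600 FPKM in PANC-1. The desaturase SCD differed by -3.34 ± 0.03 (adjusted p = 2.8e-16) and the isomerase IDI1 by -3.27 ± 0.06 (adjusted p = 6.7e-13). INSIG1, which retains SREBP in the endoplasmic reticulum, differed by -3.12 ± 0.07 (adjusted p = 1.9e-12), with 40.5 ± 0.813 and 102 ± 3.86 FPKM in HEK293T and 47.9 ± 1.71 and 12.97 ± 1.04 FPKM in PANC-1. HMGCS1, which makes HMG-CoA and shares 19.9% of its exonic bases, differed by -3.05 ± 0.05 (adjusted p = 1.7e-13), with 8.81 ± 0.220 and 18.3 ± 0.723 FPKM in HEK293T and 27.9 ± 0.225 and 5.88 ± 0.215 FPKM in PANC-1. For each of the 6 genes, all 3 DRCC libraries lay above all 3 AggreWell libraries in PANC-1 and below them in HEK293T.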

How the results depend on the processing

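Of the 9358 calls, 5 were called in the opposite direction with quantile normalization and 0 with each of the other alternatives, and no gene named by the rule reversed. The medians of the clock, TGF-beta and NF-kB lists, all near 0, changed sign with a mean FPKM of at least 5 (0.06, -0.06 and -0.19). Against 5163 genes higher and 4195 lower, leaving out each library gave 4678 to 4934 higher and 3779 to 4106 lower, and for changes of at least 2-fold 196 to 263 higher and 171 to 199 lower. With a mean FPKM of at least 5, 3359 genes were higher, 156 at least 2-fold higher, and 6341 differed between the lines, against 9647, since fewer genes were tested. The counts of at least 2-fold changes grew where low genes were damped less: 564 higher and 374 lower with a pseudocount of 0.1, and 618 and 417 with voom on recovered fragments. Leaving out each library gave 9255 to 9417 genes that differed between the lines. Of the calls, 55.2% were higher, 50.6% with median-ratio scaling, 49.99% with quantile normalization and 58.7% with mitochondrially encoded genes left out. Genes named by the rule, with CHAC1, CCNB1IP1, DDIT4, SRSF3, SRSF7 and TAF1D, gave 2542 values on the same side of the threshold and 6 that lost the call, all of SLC30A1. Other genes mentioned in the text, such as PKM, NQO1 and SHMT2, were not followed gene by gene. Of list medians under the alternatives, 143 moved by more than their spread and 448 did not. That spread was the SD of the list median over the 3 DRCC libraries, each set against the AggreWell mean. It leaves out the variation among AggreWell libraries. With a mean FPKM of at least 5, lists of low genes also lost calls, as for integrins and cadherins (4 higher, 1 lower) and YAP and TAZ targets (7 and 2). Depth limits genes under 1 FPKM, which were not tested.

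With replicate number as a block, 5300 genes were higher and 4306 lower. Deviations of same-numbered libraries correlated at 0.044, 0.245 and 0.086, and those of differently numbered libraries at -0.161 to 0.109. DRCC replicates 2 and 3 correlated best with their own numbers, and DRCC replicate 1 with AggreWell replicate 3 (0.109). These values do not settle whether the numbers pair the libraries.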
